A study of Homo sapiens with 6 samples.

Results

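The genes described are the 10 that encode the immunoproteasome and the machinery that loads peptides onto MHC class I molecules. They are TAP1, TAP2, TAPBP, PSMB8, PSMB9, PSMB10, PSME1, PSME2, ERAP1 and ERAP2. They were chosen by name, for their known roles, from the 28278 genes in the count files. Earlier results of these data were known at that time, so counts of members set beside all genes are descriptive. The cells were HT29, an established human colorectal adenocarcinoma line with epithelial morphology, whose label carries no other genetic change. The siALDOA group was transfected with an siRNA against ALDOA, which encodes the glycolytic enzyme aldolase A, and the siControl group with a scrambled siRNA. RNA was isolated 48 h later, and each group had 3 libraries that the labels call biological replicates. The knockdown was transient, no untransfected cells were sequenced, and an effect of ALDOA cannot be told apart from an off-target effect of this siRNA. All *P* values measure the spread between these libraries.

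MHC class I molecules show peptides from inside the cell to CD8+ T cells. The proteasome cuts proteins into peptides, the TAP1-TAP2 transporter pumps them into the endoplasmic reticulum (ER), ERAP1 and ERAP2 trim them there, and tapasin (TAPBP) holds the empty class I molecule at the transporter until a peptide fits. In the immunoproteasome the catalytic subunits PSMB5, PSMB6 and PSMB7 are replaced by PSMB8, PSMB9 and PSMB10, and the PA28 activator (PSME1 with PSME2) can cap the particle. Interferon is the textbook inducer of these genes, through STAT and IRF factors that bind GAS and ISRE elements in their promoters, and NLRC5 activates the class I genes and several of the same partners.

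The libraries held 27277538 to 33237914 counts, and ribosomal RNA genes took 7.71% to 17.4% of them. The targeted gene was lower in every siALDOA library. ALDOA stood at 289 ± 13.7 CPM (counts scaled to a common library size with TMM factors) in siALDOA against 632 ± 38.2 CPM in siControl (mean ± SD, n = 3 each), a log2 fold change of -1.13 (SE 0.060, edgeR adjusted *P* = 6.95e-11). The 9 epithelial markers summed to 8388 to 8623 CPM in siALDOA and to 9198 to 9663 CPM in siControl. The log2 fold change was below 0 in 7 of them and above 0 in 2. KRT18 alone passed the threshold (log2 fold change -0.28, edgeR adjusted *P* = 0.0152). KRT8, the most abundant, stood at 5093 ± 198 CPM in siALDOA and 5595 ± 190 CPM in siControl without passing (-0.14, edgeR adjusted *P* = 0.357). The part of the shift in these markers in the results was not tested. The 11 leukocyte markers summed to only 3.43 to 4.19 CPM in siALDOA and 2.41 to 3.93 CPM in siControl. Most of that sum came from CORO1A, with 473 counts over all 6 libraries (log2 fold change 0.40, edgeR adjusted *P* = 0.373), and LAPTM5, with 130 counts (-0.037, edgeR adjusted *P* = 0.969). Of the markers that define leukocytes, PTPRC had 1 count and CD53 2 counts over all 6 libraries, and TYROBP, CD3E and MS4A1 were listed at 0. None of the 2 leukocyte markers tested and none of the 2 fibroblast markers tested passed the threshold.

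Most of these genes hold in their promoters a short sequence that their choice by name did not use. Interferon, acting through ISRE elements, is their textbook inducer, so a match is not independent of a choice by known roles. The core of the interferon-stimulated response element (ISRE), GAAANNGAAA on either strand, occurred within 250 bases before to 50 bases after a RefSeq start (GRCh38.p14) in 9 of the 10 genes, all but PSMB9. Of all 35116 such windows from RefSeq, 3.57% held it, and of all 27305 genes, 4.38% did. Each core is printed below with 10 bases on either side, 5′ to 3′ on the strand that reads GAAANNGAAA, with the core in capitals. They are shown because these genes lie on 4 chromosomes. The search fixed every letter of the core except the N positions, so the likeness of the cores is not a result. The bases on either side differ between genes.
TAP1 (chr6:32853813-32853848, plus strand): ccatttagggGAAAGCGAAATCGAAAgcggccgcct
TAP2 (chr6:32838778-32838807, minus strand): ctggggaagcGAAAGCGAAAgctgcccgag
TAPBP (chr6:33314073-33314108, minus strand): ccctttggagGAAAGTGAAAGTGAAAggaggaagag
PSMB8 (chr6:32844032-32844061, plus strand): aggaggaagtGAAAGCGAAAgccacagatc
PSMB10 (chr16:67936852-67936881, minus strand): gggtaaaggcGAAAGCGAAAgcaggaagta
PSME1 (chr14:24136189-24136218, minus strand): accgcgaaggGAAAGCGAAAgcggtagggc
PSME2 (chr14:24146619-24146648, minus strand): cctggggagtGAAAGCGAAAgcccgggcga
ERAP1 (chr5:96807924-96807953, plus strand): ccccaggaccGAAAGTGAAAgtggagcccg
ERAP2 (chr5:96876460-96876489, plus strand): tcttagaacaGAAAGTGAAAgcaaaagtaa
TAP1 and TAPBP each held 2 overlapping cores. The core lay at -58 to -49 from the start in TAP2, at -20 to -5 in TAPBP, at -21 to -12 in PSMB10, at -28 to -19 in PSME2 and at -30 to -21 in ERAP2. It crossed the start in PSMB8 (-4 to 6) and followed it in PSME1 (6 to 15) and ERAP1 (3 to 12). A match describes letters only, and binding was not measured.

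Of the members, 6 rose after ALDOA knockdown and no member fell. TAP1 and PSMB9 showed the largest rises, PSMB8 and TAP2 smaller ones, and TAPBP and ERAP2 the smallest. PSMB10 and ERAP1 did not pass the threshold, and PSME1 and PSME2 were listed at 0 counts in all 6 libraries. Of the 8 members with enough counts to be tested, 6 were higher at an edgeR quasi-likelihood *P* adjusted to under 0.05 by Benjamini-Hochberg over 15307 genes, against 4.36% of all genes tested. No member was lower, against 5.29% of all genes. At the unadjusted threshold of 0.01 used in the study the count was again 6, against 5.72% of all genes. In 6 members every siALDOA library lay above every siControl library, which held for 13.1% of all genes. The log2 fold change was above 0 in 8 of the 8, with a median of 0.45, and the median over all genes tested was 0.0016. Scaling by library totals alone moved the median of all genes to 0.075 and that of the members to 0.53. The count of members that rose was 4 without siALDOA replicate 2, without siALDOA replicate 3 or without siControl replicate 2, and the members lost were TAPBP and ERAP2.

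**Figure D1:**
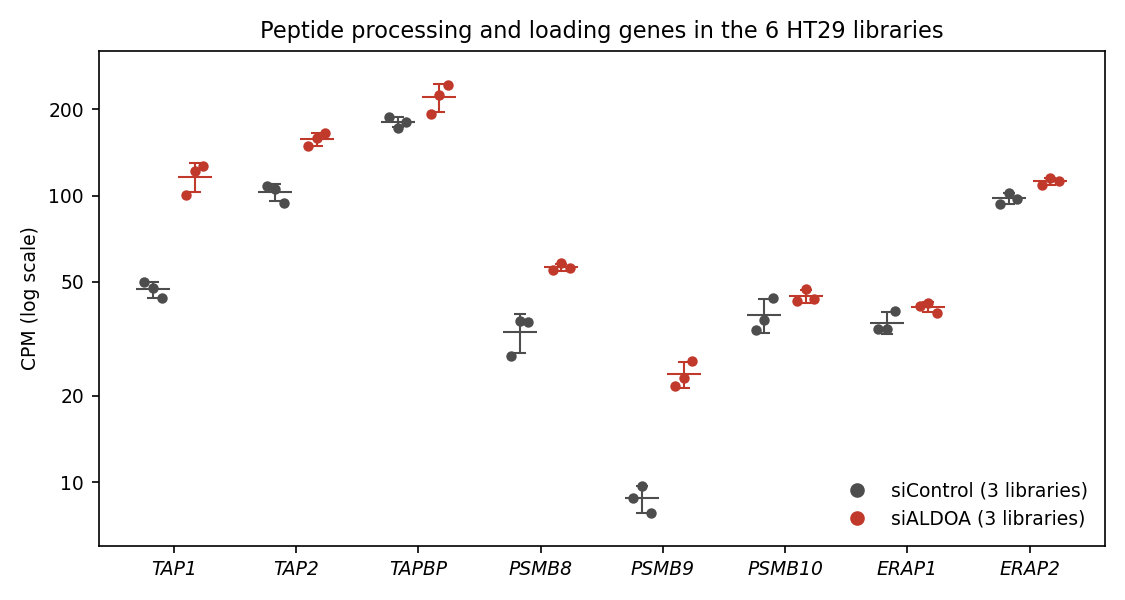
CPM (log scale) of each member with counts in the 3 siALDOA and 3 siControl libraries, with 1 point per library, a wide bar at the group mean and whiskers of ± 1 SD. The groups are apart for TAP1, TAP2, TAPBP, PSMB8, PSMB9 and ERAP2, and overlap for PSMB10 and ERAP1.

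The first group of members builds the peptide transporter and its loading complex. TAP1 (ENSG00000168394, chr6:32845209-32853816, minus strand, hg38) encodes the first chain of the transporter. It stood at 101, 122 and 126 CPM in siALDOA replicates 1 to 3 and at 49.7, 47.7 and 43.8 CPM in siControl replicates 1 to 3. The lowest siALDOA library was thus above the highest siControl library by more than the spread within either group. The log2 fold change was 1.31 (SE 0.079, edgeR adjusted *P* = 4.36e-10), a 2.47-fold rise. TAP2 (ENSG00000204267, chr6:32821833-32838739, minus strand) encodes the partner chain. It stood at 149, 158 and 165 CPM in siALDOA and at 108, 105 and 94.4 CPM in siControl. Again the groups did not overlap, and the rise was smaller, at 1.54-fold (log2 0.62, SE 0.064, edgeR adjusted *P* = 1.14e-06). Both calls held in each of the 6 fits that left out a library.

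TAPBP (ENSG00000231925, chr6:33299694-33314284, minus strand) encodes tapasin, the bridge between the transporter and class I molecules. Its level was 193, 224 and 243 CPM in siALDOA and 188, 173 and 181 CPM in siControl. siALDOA replicate 1 lay just above the highest siControl library, and the other 2 siALDOA libraries lay clearly higher. The log2 fold change was 0.29 (SE 0.070, edgeR adjusted *P* = 0.0115). The call was lost without siALDOA replicate 2 (adjusted *P* = 0.0539 by edgeR), siALDOA replicate 3 (0.0902), siControl replicate 2 (0.0824) or siControl replicate 3 (0.0523).

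The second group are the catalytic subunits that are exchanged into the immunoproteasome. PSMB9 (beta1i, ENSG00000240065, chr6:32844136-32859851, plus strand) takes the place of PSMB6. It stood at 21.6, 23.2 and 26.5 CPM in siALDOA and at 8.82, 9.70 and 7.80 CPM in siControl. It had the largest relative rise of the members, 2.71-fold, with the groups far apart (log2 1.44, SE 0.11, edgeR adjusted *P* = 1.71e-08). PSMB8 (beta5i, ENSG00000204264, chr6:32840717-32844679, minus strand) takes the place of PSMB5. It stood at 54.8, 58.0 and 56.0 CPM in siALDOA and at 27.5, 36.6 and 36.3 CPM in siControl. The siALDOA libraries were close together, while siControl replicate 1 was lower than the other siControl libraries. PSMB8 rose 1.68-fold (log2 0.75, SE 0.089, edgeR adjusted *P* = 7.73e-06), and by 0.63 on the log2 scale without siControl replicate 1.

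PSMB10 (beta2i, ENSG00000205220, chr16:67934506-67936864, minus strand) takes the place of PSMB7 and is the immunosubunit outside the chromosome 6 cluster. It stood at 42.8, 47.2 and 43.5 CPM in siALDOA and at 33.9, 36.9 and 44 CPM in siControl. The groups overlapped, because siControl replicate 3 lay above 2 siALDOA libraries. The log2 fold change of 0.22 (SE 0.086, 95% interval 0.049 to 0.39) did not pass (edgeR adjusted *P* = 0.121). Without siControl replicate 3 it was 0.33 and passed (edgeR adjusted *P* = 0.0289). It also passed with the replicate number as a block (edgeR adjusted *P* = 0.0429).

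The third group, the PA28 activator, has no measured level here. PSME1 (ENSG00000092010, chr14:24136163-24138967, plus strand) and PSME2 (ENSG00000100911, chr14:24143362-24147570, minus strand) were listed at 0 in every library, and so was CANX, the gene of the ER chaperone calnexin. These are genes that cells in general transcribe, so no level is read from the zeros. Genes that overlap or flank them had counts. EMC9, which shares 9 exon bases with PSME1 on the opposite strand and ends 1770 bases before PSME2, had 557 to 728 counts per library. RNF31, which shares 216 exon bases with PSME2 on the opposite strand, had 1132 to 1442 counts. IRF9, the next gene beyond PSME2, had 1605 to 2161, while FITM1, next to PSME1, had 4 to 13 and was not tested. How the counting treated overlapping genes is not given in the sources used here. PSME3, which encodes the other PA28 subunit of the nucleus, had a log2 fold change of -0.084 (SE 0.058, edgeR adjusted *P* = 0.415).

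The last group trims peptides in the ER. ERAP2 (ENSG00000164308, chr5:96875986-96919703, plus strand) stood at 109, 115 and 113 CPM in siALDOA and at 93.4, 102 and 97.4 CPM in siControl. The groups did not overlap, with a small rise of 1.15-fold (log2 0.20, SE 0.060, edgeR adjusted *P* = 0.0360). The call held in 1 of the 6 fits that left out a library, the one without siALDOA replicate 1, and in the other 5 the adjusted *P* from edgeR ranged from 0.0539 to 0.137. ERAP1 (ENSG00000164307, chr5:96760810-96808100, minus strand) stood at 41.3, 42.1 and 39.0 CPM in siALDOA and at 34.3, 34.2 and 39.6 CPM in siControl. siControl replicate 3 lay above 1 siALDOA library. The log2 fold change was 0.18 (SE 0.077, 95% interval 0.027 to 0.33, edgeR adjusted *P* = 0.162), and it passed under none of the 15 other settings. The plot of fold changes sets the members beside the subunits and partners they work with.

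**Figure D2:**
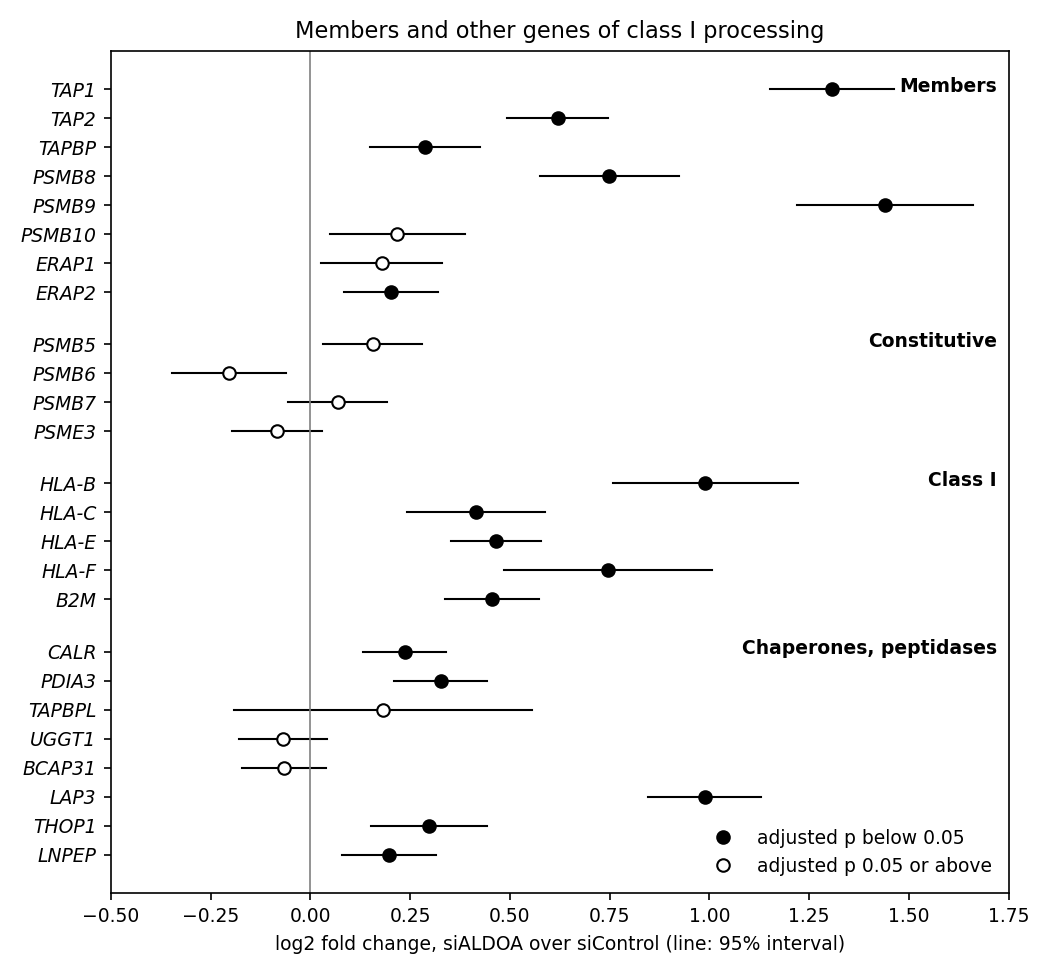
log2 fold change of siALDOA over siControl with its 95% interval for the tested members and for genes of related lists, fitted with edgeR on 3 libraries per group, with filled points where the adjusted *P* passed 0.05. PSMB9 (1.44) and TAP1 (1.31) lie highest among the members, while PSMB5, PSMB6 and PSMB7 lie between -0.20 and 0.16.

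The subunits that the immunosubunits replace did not pass the threshold. The log2 fold change was 0.16 (SE 0.063) for PSMB5, -0.20 (SE 0.073) for PSMB6 and 0.068 (SE 0.063) for PSMB7, with edgeR adjusted *P* = 0.132, 0.0868 and 0.573. With the replicate number as a block, and also without siControl replicate 1, 1 of the 3 was lower at the adjusted threshold. A ratio of 2 genes' counts within a library needs no scaling between libraries, so the balance of each pair was also taken that way. PSMB9 counts were 0.460, 0.516 and 0.591 of the PSMB6 counts in siALDOA and 0.183, 0.169 and 0.15 of them in siControl. No siALDOA library came near the siControl values, and the mean log2 ratio differed by 1.64. PSMB8 counts were 0.698, 0.746 and 0.752 of the PSMB5 counts in siALDOA and 0.422, 0.525 and 0.503 in siControl. These groups also stayed apart, with a log2 difference of 0.60. PSMB10 counts were 0.521, 0.620 and 0.576 of the PSMB7 counts in siALDOA and 0.478, 0.480 and 0.584 in siControl, which overlapped (log2 difference 0.16).

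The balance of the transporter chains was taken in the same way. TAP1 counts were 0.677, 0.770 and 0.765 of the TAP2 counts in siALDOA and 0.460, 0.454 and 0.464 in siControl, a log2 difference of 0.68 with no overlap. The siControl libraries were nearly identical in this ratio. TAP1 against its divergent neighbour PSMB9 had a log2 difference of -0.14 with overlapping groups, and ERAP1 against ERAP2 one of -0.021. With 3 libraries against 3, a two-sided exact permutation test cannot go below *P* = 0.1. That value was reached for PSMB9/PSMB6, PSMB8/PSMB5 and TAP1/TAP2 (adjusted over 6 ratios, 0.2). For PSMB10/PSMB7, TAP1/PSMB9 and ERAP1/ERAP2 the exact permutation *P* was 0.3, 0.2 and 0.9 (adjusted 0.36, 0.3 and 0.9), which does not show that these pairs moved alike.

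**Figure D3:**
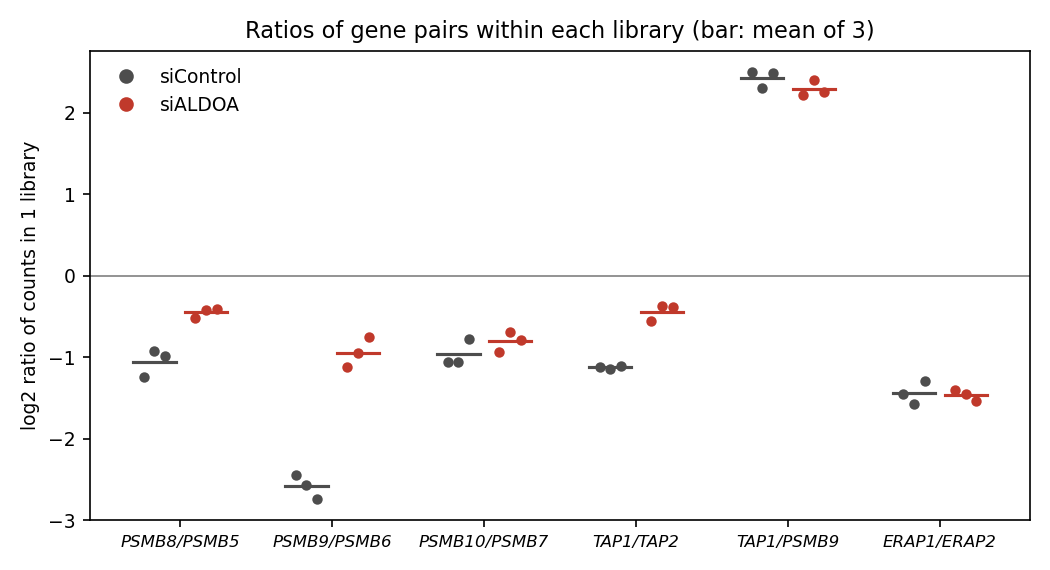
log2 ratio of the counts of 2 genes within each library, with 1 point per library and a bar at the group mean. The siALDOA points lie above all siControl points for PSMB8/PSMB5, PSMB9/PSMB6 and TAP1/TAP2, and overlap them for PSMB10/PSMB7, TAP1/PSMB9 and ERAP1/ERAP2.

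Levels can be set beside each other between genes only per length. As CPM per kilobase of the GENCODE canonical transcript (RPKM), the siControl means ranked TAPBP first at 52.2 ± 2.18, then PSMB10 at 39.2 ± 5.33 and PSMB8 at 29.8 ± 4.60 (SD, n = 3). ERAP2 (19 ± 0.87), TAP2 (18.2 ± 1.28) and TAP1 (17.5 ± 1.13) followed and did not differ beyond their spread. PSMB9 at 8.63 ± 0.93 and ERAP1 at 7.44 ± 0.64 were lowest, and their library ranges overlapped. In siALDOA the TAP1 level was 43.3 ± 5.12 RPKM, above that of TAP2 at 27.9 ± 1.47, and PSMB9 at 23.4 ± 2.47 was above ERAP1 at 8.43 ± 0.33. PSMB5, PSMB6 and PSMB7 stood at 63.7 to 75.5 RPKM in siControl, so in both groups each immunosubunit was listed below the subunit it replaces. The order depends on the length used, since with all annotated exons of a gene PSMB9 ranked below ERAP1 in siControl (2.63 against 4.54 RPKM) and PSMB8 (9.62) came after TAP1 (9.93).

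A run of 4 members lie in a short stretch of the MHC class II region on chromosome 6, as the plot along the cluster shows. They are TAP2, PSMB8, TAP1 and PSMB9. The annotated bodies of TAP2 and PSMB8 lie 1977 bases apart and those of PSMB8 and TAP1 529 bases apart. The GENCODE body of PSMB9, on the opposite strand, overlaps both PSMB8 and TAP1. That body starts at 32844136, whereas the RefSeq start of PSMB9, used for its promoter window, is at 32854192. The RefSeq start lies past the end of TAP1 at 32853816, so the PSMB9 overlaps given here rest on the longer GENCODE annotation. All 4 rose, and so did PSMB8-AS1, the antisense RNA between them (28.1, 32.2 and 32.7 CPM against 12.8, 14.3 and 14.8 CPM). Its log2 fold change was 1.15 (SE 0.095, edgeR adjusted *P* = 3.84e-08). Its exons overlap those of TAP1 by 672 bases, of PSMB8 by 602 bases and of PSMB9 by 174 bases, and PSMB8 and PSMB9 share 139 bases. The strand setting of the counting is not given in the sources used here, so reads in these stretches cannot be told apart.

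The class II genes that flank the cluster moved otherwise or did not pass. HLA-DMB, which encodes a chain of the class II peptide editor, fell at the other side of TAP1 and PSMB9 (3.27, 4.66 and 3.73 CPM against 7.5, 5.37 and 6.95 CPM, log2 fold change -0.76, SE 0.18, edgeR adjusted *P* = 0.00917). HLA-DOB, next to TAP2, had only 12 to 20 counts in siALDOA and 3 to 20 in siControl, and its log2 fold change of 0.85 (SE 0.56) did not pass (edgeR adjusted *P* = 0.393). TAPBP lies farther along the chromosome between RGL2, which rose (log2 0.26, SE 0.076, edgeR adjusted *P* = 0.0325), and ZBTB22, which had a log2 fold change of 0.027. PSMB10 lies between CTRL (0.19) and LCAT (0.099), neither of which passed. ERAP1 shares 299 exon bases with CAST on the opposite strand, and CAST had a log2 fold change of -0.12 (edgeR adjusted *P* = 0.188). LNPEP, the peptidase gene next to ERAP2, rose by 0.20 on the log2 scale (SE 0.060, edgeR adjusted *P* = 0.0422).

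**Figure D4:**
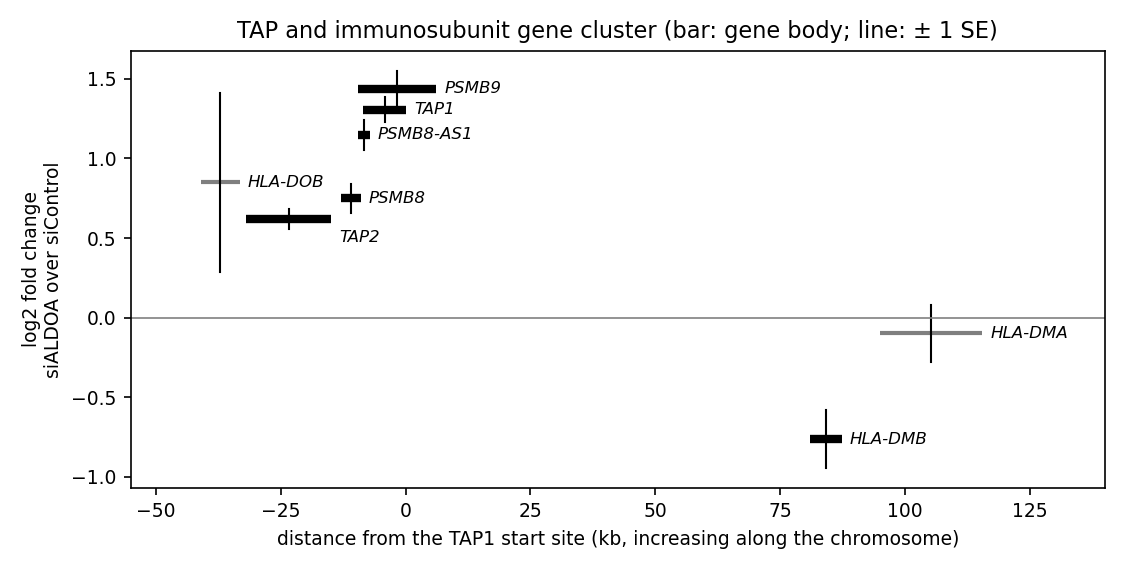
log2 fold change (vertical, ± 1 SE) of the genes around TAP1 against the distance from the TAP1 start site in kb, with a horizontal bar for each gene body in black where the edgeR adjusted *P* passed and in grey where it did not. TAP2, PSMB8, PSMB8-AS1, TAP1 and PSMB9 lie between 0.62 and 1.44, and HLA-DMB lies at -0.76.

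By their RefSeq starts, TAP1 and PSMB9 run in opposite directions from points 487 bases apart. The 250 bases before the TAP1 start (chr6:32853705-32853954, GRCh38.p14) are printed on the TAP1 strand, the minus strand. They are shown because the ISRE cores they hold lie between these starts, though inside the longer GENCODE body of PSMB9. The capitals mark the overlapping cores, which read in the opposite direction here.
TAP1 upstream: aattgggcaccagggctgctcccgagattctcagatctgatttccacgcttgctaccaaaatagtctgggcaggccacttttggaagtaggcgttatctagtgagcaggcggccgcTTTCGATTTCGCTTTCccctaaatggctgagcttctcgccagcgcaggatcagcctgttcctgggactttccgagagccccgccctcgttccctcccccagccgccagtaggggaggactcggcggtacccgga
The cores end 354 bases before the PSMB9 start, outside the PSMB9 window, in which no core was found. Other motifs were less common among the members. The GAS letters TTCNNNGAA, on either strand, were in a window of 2 of the 10 genes (PSMB8 and another annotated start of TAP1), against 9.38% of all genes. The NF-kappaB consensus was in 3 of the 10 (TAP1, TAPBP and ERAP1), against 7.09% of all genes. The letters CCAAT were in 3 of the 10 (TAP1, PSMB9 and ERAP1), below their share of 39.7% of all genes. Members that rose and members that did not both held the core: TAP1, TAP2, TAPBP, PSMB8 and ERAP2 among the first, PSMB10 and ERAP1 among the second. PSMB5, which did not pass, held GAS letters and no ISRE core in its windows, and PSMB6 and PSMB7 were not searched.

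**Figure D5:**
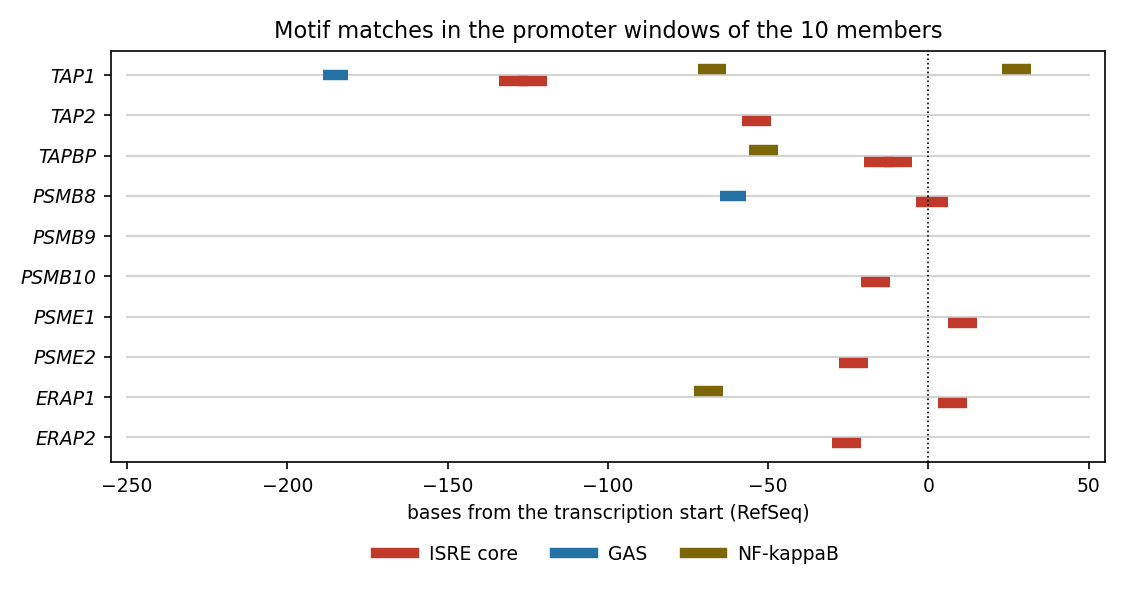
Position of ISRE core, GAS and NF-kappaB matches in bases from the annotated start, for each member, over all RefSeq starts of a gene from 250 bases before to 50 bases after. An ISRE core is drawn for 9 of the 10 members and not for PSMB9, and the GAS match of TAP1 belongs to another start than its ISRE cores.

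The partners of these genes were read in the same fit. Among genes of class I molecules, HLA-G was listed at 0, and HLA-B, HLA-C, HLA-E, HLA-F and B2M rose, with log2 fold changes of 0.41 to 0.99. HLA-B had the largest change of these (24.6, 21.5 and 30.3 CPM against 12.1, 12.0 and 14.3 CPM, log2 0.99, edgeR adjusted *P* = 8.11e-06). B2M, the light chain of every class I molecule, rose by 0.45 on the log2 scale, from 738 ± 26.3 to 1011 ± 44.9 RPKM (edgeR adjusted *P* = 3.16e-05). HLA-E and HLA-F rose by 0.47 and 0.75 (edgeR adjusted *P* = 1.48e-05 and 8.27e-04), and HLA-C by 0.41 (0.00408). HLA genes are near-identical copies, so counts may have been split between them. Of 6 ER chaperones and editors, 5 were tested and 2 rose (1 without siControl replicate 3), beside 4.36% of all genes, CALR (log2 0.24, edgeR adjusted *P* = 0.00647) and PDIA3 (0.33, 0.00111), both of which fold class I molecules. TAPBPL, a relative of tapasin that edits peptides, had a log2 fold change of 0.18 (edgeR adjusted *P* = 0.623).

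Of 8 cytosolic and other peptidases 3 rose and none fell, beside 4.36% higher and 5.29% lower over all genes. The count of higher peptidases was 1 without siControl replicate 2 and 2 with any single siALDOA replicate or siControl replicate 3 left out, and 1 peptidase was lower without siALDOA replicate 1. LAP3, leucine aminopeptidase, rose most (137, 158 and 159 CPM against 68.9, 81.6 and 78.2 CPM, log2 0.99, edgeR adjusted *P* = 6.15e-09). THOP1, which degrades peptides in the cytosol, and LNPEP, which trims peptides in endosomes, rose by 0.30 and 0.20 (edgeR adjusted *P* = 0.0129 and 0.0422), and NPEPPS stood at 0.22 without passing (0.0667).

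The rest of the proteasome was read beside 4.36% higher and 5.29% lower over all genes, so counts at or near 0 in lists this short are near the background. None of the 11 other subunits of the core particle, none of the 3 replaced catalytic subunits and none of the 8 other activators and assembly chaperones passed, with median log2 fold changes of 0.031, 0.068 and -0.0039. Counted at an unadjusted *P* under 0.01 these lists also had 0 members. Of 18 subunits of the regulatory particle 1 rose, PSMD4, a ubiquitin receptor (log2 0.22, edgeR adjusted *P* = 0.0447), a share near the 4.36% over all genes, and the median was 0.014. No subunit of this particle was higher without siALDOA replicate 1, siALDOA replicate 2, siControl replicate 1 or siControl replicate 3, and 2 were lower without siALDOA replicate 1. The member median of 0.45 stood beside these as a description, with no test between lists.

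Of 14 regulators of class I processing genes tested, 9 did not pass, 5 of them with a log2 fold change below 0, and none fell. Those that rose stand beside 4.36% higher over all genes, and 1 fewer passed without siALDOA replicate 3 or with any single siControl replicate left out. NLRC5, the class I transactivator, stood at 20.1, 27.2 and 27.2 CPM in siALDOA and at 9.01, 11.3 and 9.44 CPM in siControl (log2 1.33, edgeR adjusted *P* = 2.18e-07). Every siALDOA library was above every siControl library. STAT2, a component of the interferon-activated ISGF3 complex, rose by 0.78 on the log2 scale, IRF1 by 0.39 and IRF9 by 0.27 (edgeR adjusted *P* = 1.63e-07, 0.00196 and 0.0253). The list of class II genes had 7 of 14 genes tested, with none higher, 1 lower (HLA-DMB) and a median of -0.062, beside 4.36% higher and 5.29% lower over all genes, and 6 of its genes were listed at 0. In bulk RNA a change in the share of cells that express a gene and a change in RNA per cell cannot be told apart.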

How the data were processed

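The 6 libraries, 3 per group, were assigned by their titles. Per the study's methods, the authors used TopHat2 for alignment (hg38) and gfold for counting, and the deposited files hold raw counts per gene symbol. Annotation, strand setting and multiple matches are not given in the sources used here. Counts were tested in R 4.3.3 with edgeR 4.0.16 (filterByExpr, TMM, quasi-likelihood F-test, Benjamini-Hochberg over all 15307 genes tested). SEs were derived from the F statistic. The script was tested on simulated data. Alternatives used limma 3.58.1 (voom), DESeq2 1.42.0 and other settings named in the closing section. Ratios used exact permutation tests (python 3.11.15, scipy 1.17.1). Positions, lengths and overlaps came from GENCODE release 44, promoter windows from RefSeq (GRCh38.p14), in which 10 of 10 members matched. Figures used matplotlib 3.10.9.

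Members and lists were chosen with earlier results of these data known. Named genes were all members, the genes of the ratios, up to 4 genes per list by smallest *P*, neighbours on the annotation and ALDOA. HLA-DMA, drawn in the cluster, and HLA-C were added after their values were seen. Not every gene the rule takes is printed, and some results are not reported here. At these depths 1 CPM is about 30 counts.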

Additional observations from a re-analysis of the deposited data

How the results depend on the processing

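Of 15 other settings, 9 kept all libraries. The replicate block gave 7 members higher, and the other 8 (DESeq2, library totals, upper quartile, limma-voom, likelihood ratio test, no filter, at least 10 counts in every library, ribosomal RNA genes left out, the last chosen after seeing the data) gave 6 members higher, as in the report. No log2 fold change of a member or ALDOA changed sign under any of the 15. TAP1, TAP2, PSMB8, PSMB9 and ALDOA passed under all of them. Leaving out 1 library gave 4 to 6 members higher. It gave 0 to 1 constitutive catalytic subunits lower, 0 to 1 subunits of the regulatory particle higher and 0 to 2 lower, 1 to 2 ER chaperones higher, and 1 to 3 peptidases higher and 0 to 1 lower. Over all genes the calls, 668 higher and 810 lower, fell to 359 and 490 without siControl replicate 2 and to 363 and 471 without siControl replicate 3. Library totals gave 896 higher and 279 lower. The cause was not tested.

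Same-numbered libraries deviated together only weakly (r = 0.035, 0.027 and 0.026), so the numbers were not taken as pairs, although each library correlated best with its own number. The replicate block also gave 1 constitutive catalytic subunit lower, 1 subunit of the regulatory particle lower, and 987 higher and 1175 lower over all genes. PSME1/PSME2 and PSME2/PSME3 ratios could not be given, as PSME1 and PSME2 were listed at 0. Depth left genes with few counts untested.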
